A study of Mus musculus with 2 samples.

Results

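The genes followed here are 9 genes that respond to transforming growth factor beta (TGF-beta) or bone morphogenetic proteins (BMPs): Id1, Id2, Id3, Smad6, Bambi, Smad7, Skil, Pmepa1 and Thbs1. They were taken by symbol from the 32285 genes of the deposited matrix, and all 9 were found there. Single-cell RNA was counted in 2 droplet libraries (10x Genomics), 1 per group. The K2-KO library came from tumours of 4T1 cells given a guide RNA (sgRNA) against K2 and labelled K2-KO, that is, Kindlin-2 knockout. The control library came from tumours of 4T1 cells with a control sgRNA, labelled WT. 4T1 cells derive from a mammary carcinoma of a BALB/c mouse, and the labels call the line triple-negative. In both groups the cells had been placed in the mammary fat pad of female BALB/c mice (spelled BLB/c in the labels) and the tumours were taken at 150 mm3, digested for 45 min and sorted for live cells by mCherry. The labels give neither the number of tumours pooled, nor the sorted fraction loaded, nor whether the knockout was a single clone. The guide was in the injected cells only, so fibroblasts, blood vessels and leukocytes came from hosts that carried no guide.

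TGF-beta and activins bind receptor kinases that phosphorylate Smad2 and Smad3, while BMPs act mainly through Smad1, Smad5 and Smad9, and both kinds of Smad enter the nucleus with Smad4. Id1, Id2, Id3, Smad6 and Bambi are treated here as BMP-type targets, Skil, Pmepa1 and Thbs1 as Smad3-type targets, and Smad7 as induced by both arms. Several of these genes feed back on the pathway that induces them, and in mammary carcinoma TGF-beta is known both to restrain growth and to favour invasion. Fermt2 encodes Kindlin-2, which binds the cytoplasmic tails of integrins and helps to activate them, and some integrins can release TGF-beta from its latent form.

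Promoter sequences of RefSeq are shown for Id2, Id3 and Smad6, the 3 of 9 members matched in the promoter table. Each is the 250 bases before the RefSeq transcription start on build GRCm38.p6, written 5' to 3' on the gene's strand. Id2 is chr12:25096093-25096342 on the minus strand, Id3 is chr4:136143572-136143821 on the plus strand and Smad6 is chr9:64022060-64022309 on the minus strand. By the GENCODE gene positions given below, the Id2 and Id3 windows lie inside the annotated genes, and only the Smad6 window lies outside its gene. Motif positions are counted from the RefSeq start. Capitals mark the letters CAGAC on either strand (GTCTG), the box bound by Smad3 and Smad4, or GGCGCC, a GC-rich motif of BMP-responsive promoters.
Id2: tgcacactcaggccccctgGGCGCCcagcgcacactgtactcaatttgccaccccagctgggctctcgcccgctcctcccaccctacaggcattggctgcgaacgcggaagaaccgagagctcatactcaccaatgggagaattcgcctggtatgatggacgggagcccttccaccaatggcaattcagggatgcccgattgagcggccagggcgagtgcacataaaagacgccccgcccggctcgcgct
Id3: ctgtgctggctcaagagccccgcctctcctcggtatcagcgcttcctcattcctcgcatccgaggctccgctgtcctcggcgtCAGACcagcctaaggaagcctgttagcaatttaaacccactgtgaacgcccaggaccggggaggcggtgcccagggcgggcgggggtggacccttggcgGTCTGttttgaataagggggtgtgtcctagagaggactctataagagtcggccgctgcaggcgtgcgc
Smad6: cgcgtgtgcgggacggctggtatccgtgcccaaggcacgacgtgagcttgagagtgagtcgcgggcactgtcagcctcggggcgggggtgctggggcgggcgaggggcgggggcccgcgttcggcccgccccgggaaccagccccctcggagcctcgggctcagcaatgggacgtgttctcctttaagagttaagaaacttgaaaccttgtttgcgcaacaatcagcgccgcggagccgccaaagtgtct

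The Id3 window held 2 copies of CAGAC, at -167 and -68 from the start, and the Id2 window held 1 copy of GGCGCC, at -231. Neither motif was in the Smad6 window. The palindrome GTCTAGAC, which shares the letters AGAC with CAGAC but does not contain it, was in none of the 3. Among 32851 promoter windows of RefSeq, each also taken as the 250 bases before the start, 42.2% held CAGAC, 9.59% GGCGCC and 0.167% GTCTAGAC. These matches describe letters in a short window and not binding. Id1, Smad7, Skil, Bambi, Pmepa1 and Thbs1 are named without a promoter.

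The K2-KO library held 7250 barcodes and 180774106 unique molecular identifiers (UMIs, counts of distinct RNA molecules), and the control library 8038 barcodes and 214163620 UMIs. After filters and removal of called doublets, 6761 K2-KO and 7530 control cells remained. The libraries shared 13 barcode sequences. A level is given as UMIs per 1000000 UMIs of the class (CPM), with the UMIs of all its cells summed, and a difference as the log2 ratio of CPM, K2-KO over control. With 1 library per group there is no test, and each 95% interval (exact Poisson for a level, exact conditional binomial for a ratio) covers counting error alone and says nothing of the spread between tumours. A gene is counted as higher or lower when it differed at least 1.5-fold with at least 50 UMIs over both libraries.

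Tumour cells were gated on Epcam, an epithelial surface protein, fibroblasts on Col1a1, vessel cells on Pecam1, macrophages on C1qa and T cells on Cd3e. The tumour gate held 2157 K2-KO and 3191 control cells, with medians of 41780 and 37534 UMIs. Of these, 92.6% and 97.4% fell in clusters named tumour epithelial-like from a marker list, and 5.80% and 1.57% in clusters named gland epithelial-like. All 7 tumour markers were detected in the gate in both libraries. Markers of gland epithelium summed to 216 CPM in K2-KO and 31.4 CPM in control cells of the gate, those of macrophages to 53.0 and 33.7 CPM, and those of neutrophils to 60.6 and 148 CPM. Fermt2 stood at 17.4 CPM in K2-KO and 39.6 CPM in control cells of the gate, a log2 ratio of -1.19 (-1.26 to -1.11), and at 14.0 and 39.1 CPM (-1.48, -1.57 to -1.39) without gland cells and without cells with at least 2 UMIs of Ptprc, the pan-leukocyte gene CD45. The level of this RNA does not measure the protein left. Without those gland and Ptprc cells the neutrophil markers, among them Mmp9, still summed to 62.7 CPM in K2-KO and 130 CPM in control cells.

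In tumour cells, 8 of the 9 members had a lower level in the K2-KO library than in the control, by log2 ratios of -0.20 to -0.91. The decrease reached 1.5-fold for 3 of 9, Id1, Smad6 and Thbs1, against 5.33% of 15585 genes tested. Bambi was the 1 member counted as higher, against 16.6% of the genes tested. The median log2 ratio was -0.42 over the 9 members and 0.11 over all genes tested.

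Id1, Id2 and Id3 are helix-loop-helix proteins that bind E proteins and keep them from DNA. Id1 (ENSMUSG00000042745, chr2:152736251-152737410 in mm10) had 4818 UMIs and 44.3 CPM in K2-KO tumour cells, against 9493 UMIs and 68.5 CPM in control tumour cells, a log2 ratio of -0.63 (-0.68 to -0.58). Id3 (ENSMUSG00000007872, chr4:136143497-136145755) had 339 CPM in K2-KO and 481 CPM in control tumour cells (-0.50, -0.52 to -0.48). Id2 (ENSMUSG00000020644, chr12:25093799-25097140) had 18.4 CPM in K2-KO and 24.7 CPM in control tumour cells (-0.42, -0.51 to -0.34). All 3 Id genes were thus lower in the K2-KO library, and Id1 alone of them past 1.5-fold, against 5.33% of the genes tested.

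Smad6, an inhibitory Smad that acts mainly on BMP receptors, had the lowest ratio of the 9. Smad6 (ENSMUSG00000036867, chr9:63953076-64022059) had 565 UMIs and 5.20 CPM in K2-KO tumour cells, against 1354 UMIs and 9.77 CPM in control tumour cells (-0.91, -1.05 to -0.77). A Smad6 UMI was found in 19.0% of K2-KO and 29.4% of control tumour cells, and in 0.417% and 1.16% when each cell was thinned to 1000 UMIs. In T cells, which had 1 Smad6 UMI in each library, the thinned share was 0% in both, with exact upper 95% bounds of 0.714% in K2-KO and 1.003% in control T cells. The thinned Smad6 shares of tumour cells had exact 95% intervals of 0.191% to 0.791% in K2-KO and 0.819% to 1.60% in control cells.

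Smad7, an inhibitory Smad of both arms, differed least. Smad7 (ENSMUSG00000025880, chr18:75367529-75395935) had 161 CPM in K2-KO and 186 CPM in control tumour cells (-0.20, -0.23 to -0.18). Bambi, a pseudoreceptor without a kinase domain, was nearly absent from tumour cells of either library. Bambi (ENSMUSG00000024232, chr18:3507923-3516404) had 118 UMIs and 1.09 CPM in K2-KO cells of the gate, against 24 UMIs and 0.173 CPM in control cells of the gate (2.65, 2.01 to 3.35). Of these UMIs, 6 in K2-KO and 10 in control cells remained once gland cells were left out, so most of the K2-KO Bambi UMIs of the gate were held by the gland cells in it.

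Of the Smad3-type targets, Thbs1 differed most. Thbs1 encodes thrombospondin-1, a matrix protein that can activate latent TGF-beta. Thbs1 (ENSMUSG00000040152, chr2:118111876-118127133, overlapped by the antisense gene Gm29233) had 5050 UMIs and 46.5 CPM in K2-KO tumour cells, against 11029 UMIs and 79.6 CPM in control tumour cells (-0.78, -0.82 to -0.73). Pmepa1, a membrane protein that holds receptor-activated Smads away from the receptor (ENSMUSG00000038400, chr2:173224458-173276533), had 331 CPM in K2-KO and 431 CPM in control tumour cells (-0.38, -0.40 to -0.36). Skil, which encodes the Smad co-repressor SnoN (ENSMUSG00000027660, chr3:31095058-31122577), had 181 CPM in K2-KO and 212 CPM in control tumour cells (-0.22, -0.25 to -0.20). Pmepa1 and Skil were lower in the K2-KO library by less than 1.5-fold. A Thbs1 UMI was found in 60.5% of K2-KO and 71.9% of control tumour cells, and in 5.19% and 7.81% after thinning, against 0.194% and 0.273% of thinned T cells.

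**Figure D1:**
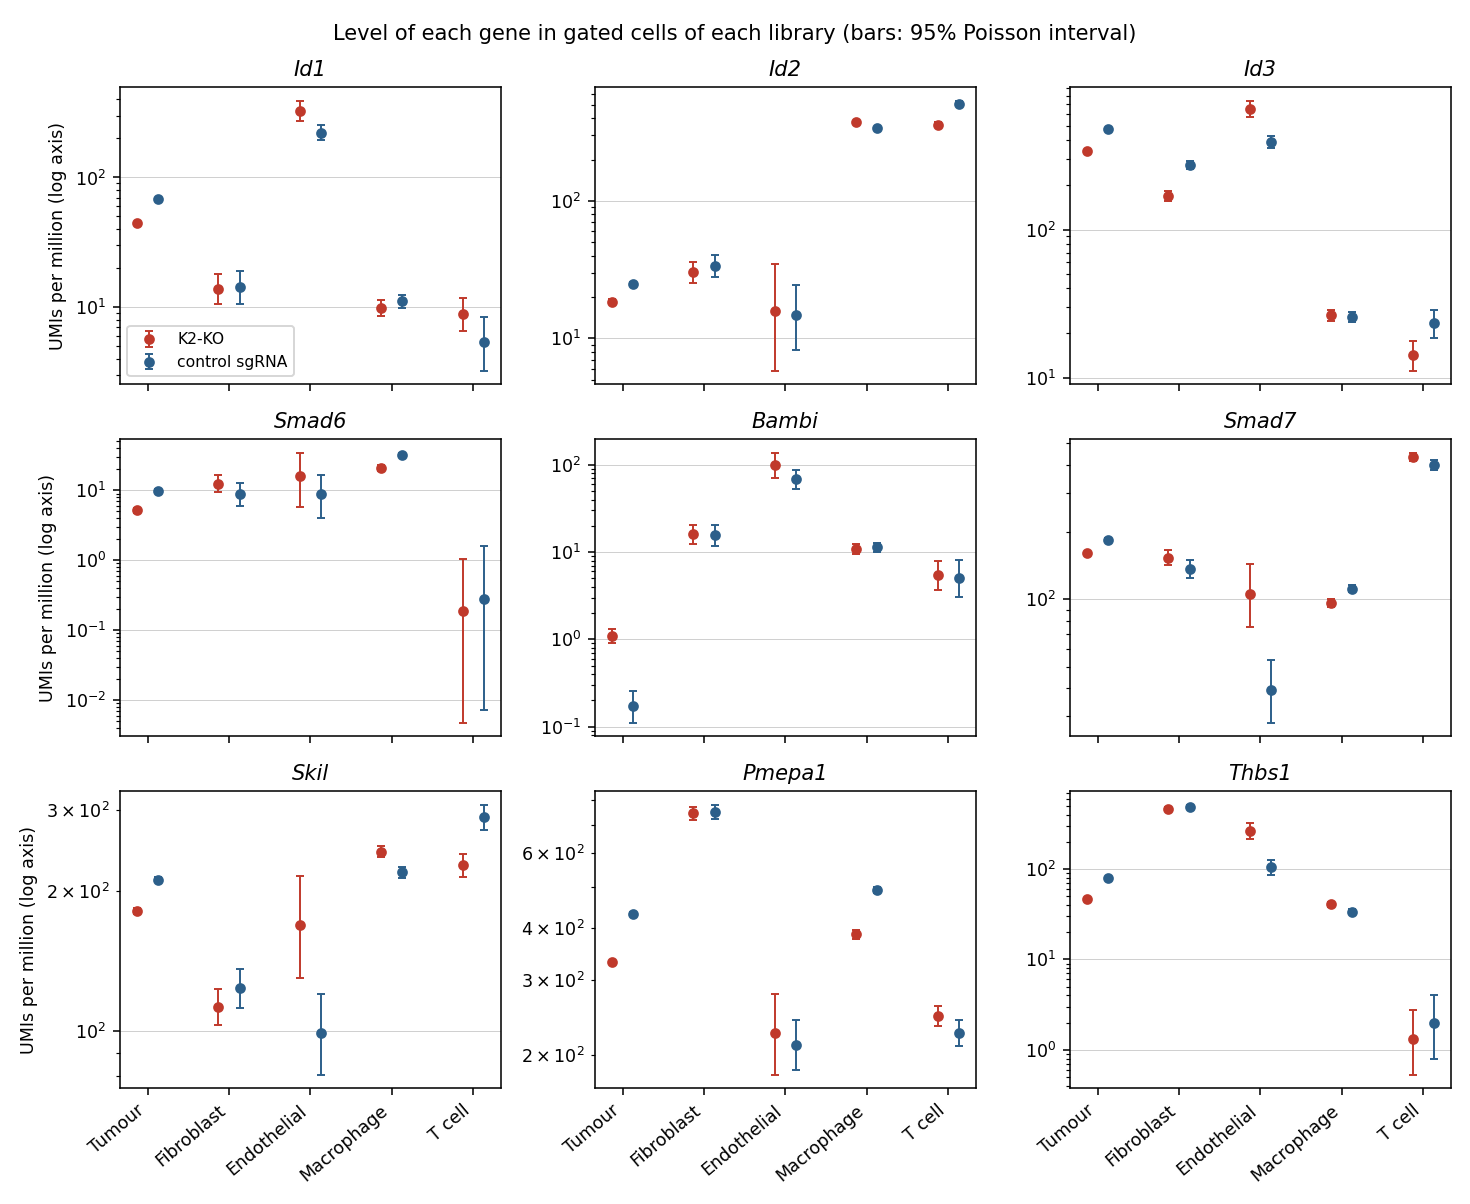
Each panel plots 1 gene's level in CPM (log axis) in 5 gated cell classes, K2-KO (red, left of each pair) and control sgRNA (blue), with 95% Poisson intervals; endothelial cells are the Pecam1-gated cells with a Cdh5 UMI and no Ptprc UMI. In tumour cells every gene but Bambi is lower in K2-KO, in macrophages Smad6 is lower at 20.6 against 31.9 CPM, and in T cells Id2 is lower at 359 against 512 CPM.

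The gland cells and leukocytes of the gate held RNA of some members. Gland cells are here those in a gland cluster or with at least 2 UMIs of 5 gland markers together (397 K2-KO and 286 control). Only 125 K2-KO and 50 control cells of the gate were in gland epithelial-like clusters, so many of those left out may be tumour cells. Without the gland cells and the cells with at least 2 Ptprc UMIs, 1701 K2-KO and 2850 control cells remained. Their gland markers summed to 12.5 and 3.62 CPM. There, 8 of 9 members had enough UMIs, all 8 were lower in the K2-KO library, and 4 of the 8 (Id1, Id2, Smad6 and Thbs1) were at least 1.5-fold lower, against 6.97% of 14471 genes, while no member was counted as higher, against 12.0% of genes. Among these 8, Id2 moved most with this choice. It stood at 11.5 CPM in K2-KO and 22.2 CPM in control cells of this set, a log2 ratio of -0.95 (-1.05 to -0.84). Smad6 had 4.78 CPM in K2-KO and 9.75 CPM in control cells (-1.03, -1.19 to -0.87), and Thbs1 had 43.4 and 79.1 CPM (-0.87, -0.92 to -0.81). Id1 (-0.62), Id3 (-0.51), Smad7 (-0.20), Skil (-0.26) and Pmepa1 (-0.39) stayed close to their ratios in the whole gate. The rule for this set was chosen after the values were seen.

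**Figure D2:**
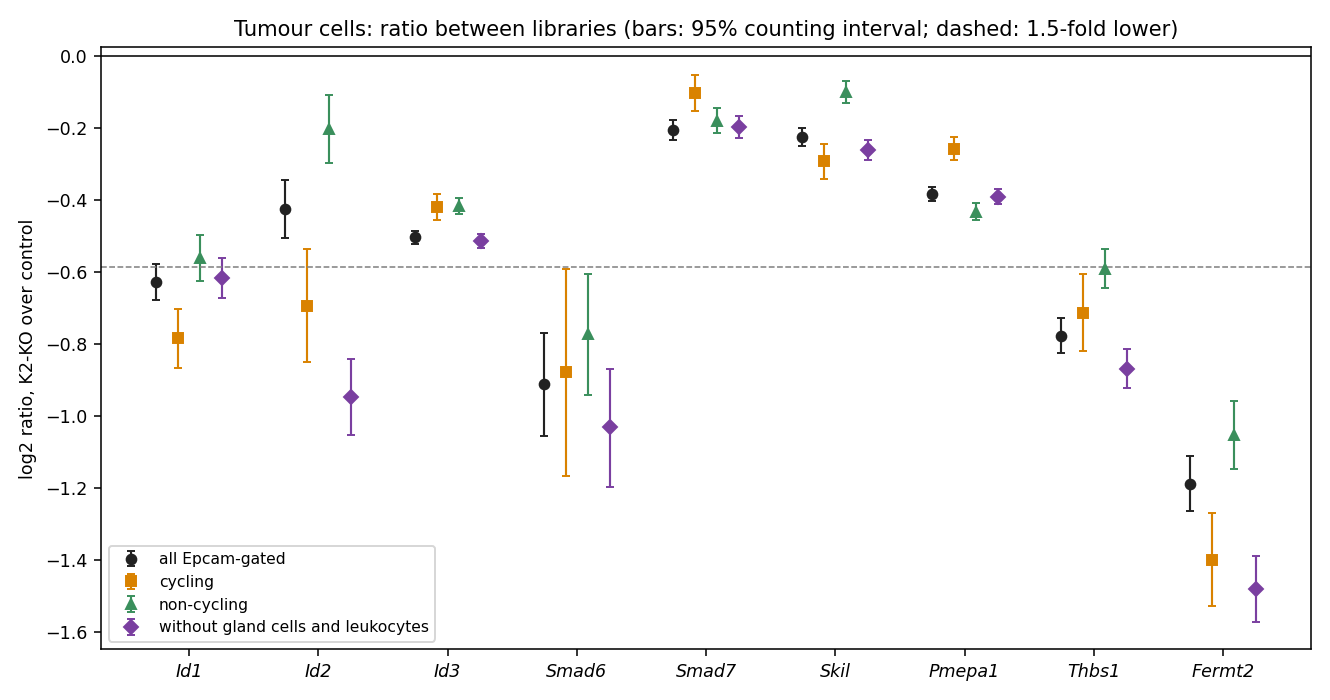
The log2 ratio of CPM, K2-KO over control, is plotted for 8 members and Fermt2 in all Epcam-gated cells, cycling cells, non-cycling cells, and the gate without gland cells and leukocytes, with 95% counting intervals. All ratios lie below 0, Smad6 and Thbs1 lie at or below the dashed line of 1.5-fold in all 4 sets, and Id2 ranges from -0.20 to -0.95.

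The 2 libraries filled the 7 tumour epithelial-like clusters unevenly, and this touched the members differently. Clusters 1 and 8 held 104 and 156 K2-KO cells against 1031 and 800 control cells, and clusters 0 and 15 held 573 and 565 K2-KO cells against 300 and 294 control cells. Thbs1 was lower in K2-KO cells of all 7 clusters, with log2 ratios of -0.41 to -1.07, Pmepa1 in all 7 (-0.27 to -0.67) and Id2 in all 7 (-0.14 to -0.75). The Id2 intervals included 0 in clusters 0, 9 and 15. Smad6 was lower in each of the 6 clusters where it had at least 50 UMIs (-0.85 to -1.33). The median log2 ratio of all genes tested ran from -0.08 to 0.04 over the 7 clusters. Id1 was lower in 6 of 7, with an interval that included 0 in cluster 8, but in cluster 1 it stood at 74.0 CPM in K2-KO and 61.3 CPM in control cells (0.27, 0.11 to 0.43).

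Id3 behaved differently from the other Id genes in this respect. Its ratios within clusters ran from -0.31 to 0.09, below 0 in 4 of 7, with a mean of -0.07, against -0.50 in the gate as a whole. Its level differed more between clusters than between libraries: cluster 8 had 698 CPM in K2-KO and 665 CPM in control cells, and cluster 0 had 270.2 and 255 CPM. The lower Id3 of the K2-KO tumour gate thus went with fewer K2-KO cells in the clusters where Id3 was high. Skil and Smad7 had cluster means of -0.12 and -0.12, with 4 and 5 of 7 clusters below 0. Fermt2 was lower in all 7 clusters (-1.39 to -1.99). The clusters were built from all variable genes, so the cluster a cell falls in is not independent of the libraries.

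**Figure D3:**
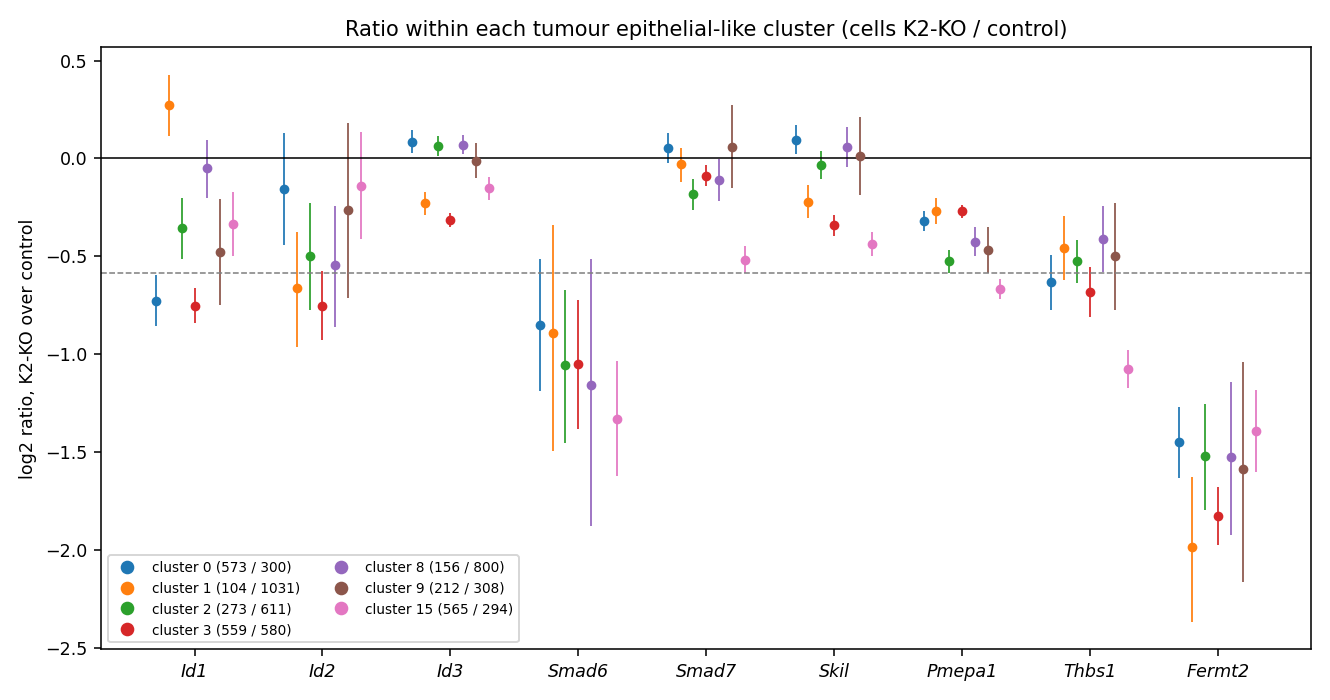
Each point is the log2 ratio of CPM, K2-KO over control, of 1 gene within 1 tumour epithelial-like cluster, with its 95% counting interval, drawn where the gene had at least 50 UMIs over both libraries; the legend gives the cells of each library per cluster. Smad6 lies between -0.85 and -1.33 and Thbs1 between -0.41 and -1.07, while the Id3 points lie between -0.31 and 0.09.

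Cycling cells, those with at least 100 CPM of Top2a, the topoisomerase of dividing cells, made up 30.4% of K2-KO and 19.4% of control tumour cells. The Top2a level of 482 K2-KO and 418 control tumour cells lay within 2-fold of this limit. In cycling cells, 4 of 9 members (Id1, Id2, Smad6 and Thbs1) were at least 1.5-fold lower in the K2-KO library, against 6.02% of 13324 genes, and Bambi was higher, against 10.2%. In non-cycling cells 2 of 9 (Smad6 and Thbs1) were lower, against 4.79% of 14745 genes, and Bambi was higher, against 17.0%.

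Id1 stood at 43.9 CPM in K2-KO and 75.6 CPM in control cycling cells (-0.78, -0.87 to -0.70), and at 44.6 and 65.8 CPM in non-cycling cells (-0.56, -0.62 to -0.50). Id2 stood at 12.4 CPM in K2-KO and 20.1 CPM in control cycling cells (-0.69, -0.85 to -0.54), and at 23.0 and 26.5 CPM in non-cycling cells (-0.20, -0.30 to -0.11). Id3 had nearly the same ratio in both sets, with 265 CPM in K2-KO and 354 CPM in control cycling cells (-0.42, -0.45 to -0.38) and 397 and 529 CPM in non-cycling cells (-0.42, -0.44 to -0.39). The Id1 level of K2-KO cells was thus alike in both sets, while that of control cells was higher in cycling cells. Without the leukocytes and gland cells of the gate, the Id2 ratio was -0.94 (-1.13 to -0.74) in cycling and -0.82 (-0.95 to -0.69) in non-cycling cells. In the whole gate the non-cycling Id2 ratio changed sign, to 0.16 with every cell weighing the same and to 0.15 with any Top2a UMI counted as cycling.

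Smad6 had 3.60 CPM in K2-KO and 6.61 CPM in control cycling cells (-0.88, -1.17 to -0.59), and 6.43 and 10.97 CPM in non-cycling cells (-0.77, -0.94 to -0.60). Thbs1 had 26.0 CPM in K2-KO and 42.6 CPM in control cycling cells (-0.71, -0.82 to -0.60), and 62.2 and 93.6 CPM in non-cycling cells (-0.59, -0.64 to -0.54). Both genes had a lower level in cycling than in non-cycling cells of either library, and both were lower in K2-KO cells of either set. Pmepa1 had ratios of -0.26 (-0.29 to -0.22) in cycling and -0.43 (-0.46 to -0.41) in non-cycling cells, Skil -0.29 (-0.34 to -0.24) and -0.10 (-0.13 to -0.07), and Smad7 -0.10 (-0.15 to -0.05) and -0.18 (-0.21 to -0.15).

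BMP-type and Smad3-type members did not separate by direction in tumour cells. The summed level of the 5 BMP-type members was 408 CPM in K2-KO and 584 CPM in control tumour cells (-0.52, -0.53 to -0.50), and that of the 3 Smad3-type members was 558 and 722 CPM (-0.37, -0.39 to -0.36). Both kinds held a member past 1.5-fold and a member well within it. The BMP-type sum is mostly Id3 and the Smad3-type sum mostly Pmepa1, so each sum follows its most abundant gene. Whether the 2 sums differ beyond the variation between tumours cannot be tested with 1 library per group.

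Of 36 other listed targets of the TGF-beta arm, 34 had enough UMIs in tumour cells. In the K2-KO library 14 of them were at least 1.5-fold lower and 3 higher, against 5.33% and 16.6% of the genes tested, and 17 were within 1.5-fold. Their median log2 ratio was -0.33, against 0.11 over all genes tested. Ccn2, the matricellular protein CTGF, which is also a target of YAP, had 8.95 CPM in K2-KO and 31.3 CPM in control tumour cells (-1.81). The genes with the lowest ratios were the NADPH oxidase gene Nox4 (1.63 CPM in K2-KO, 7.89 CPM in control, -2.28), Ccn2 and the angiogenic factor Vegfa (16.03 and 55.1 CPM, -1.78). Without gland cells and leukocytes Nox4 had 0.219 CPM in K2-KO and 7.72 CPM in control cells (-5.14, -5.88 to -4.49).

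Genes past 1.5-fold lower in this list also included Ccn1, Ltbp2, Col5a1, Fn1, Pdgfb, Cdkn1a, Snai1, Bhlhe40, Mmp9 and Nuak1. The 3 higher ones were Snai2 (0.414 CPM in K2-KO, 0.101 CPM in control, 2.04), the actin-binding gene Tagln (7.64 and 2.74 CPM, 1.48) and the integrin Itgb6 (6.54 and 4.31 CPM, 0.60). Without gland cells and leukocytes 14 of 33 were lower and 2 higher, against 6.97% and 12.0% of the genes tested in that set. No Snai2 UMI remained there in either library, and Itgb6 stood at 6.84 CPM in K2-KO and 4.19 CPM in control cells (0.71, 0.53 to 0.88). Itgb6, which pairs in an integrin that activates latent TGF-beta, thus went against the direction of its list in that set too.

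Other BMP targets were few in these cells, and Id4 changed direction without gland cells and leukocytes. Of 20 listed genes, 19 were in the matrix and 7 had enough UMIs in the tumour gate, of which Id4, Hey1, Msx2, Gata2 and Hhex were at least 1.5-fold higher and none lower, against 16.6% and 5.33% of the genes tested. Id4, the remaining Id gene, had 371 UMIs and 3.41 CPM in K2-KO, against 155 UMIs and 1.12 CPM in control cells of the gate (1.61, 1.34 to 1.89). Without gland cells and leukocytes it had 29 UMIs and 0.335 CPM in K2-KO, against 107 UMIs and 0.879 CPM in control cells (-1.39, -2.04 to -0.79), and Msx2 had no UMI in either library. Gata2 (26 UMIs in K2-KO, 20 in control) and Hhex (11 and 10) kept a ratio above 0 there but had too few UMIs to be counted. In that set 3 of the listed genes had enough UMIs. Among them Gata3, a luminal transcription factor, was higher at 145 CPM in K2-KO and 106 CPM in control cells (0.45), and Runx2 was 90.5 and 84.8 CPM (0.09).

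Of 14 ligands, 9 had enough UMIs in the tumour gate, none was at least 1.5-fold lower, against 5.33% of the genes tested, and Tgfb2 and Bmp5 were higher, against 16.6%. Tgfb1 had 57.7 CPM in K2-KO and 59.9 CPM in control tumour cells (-0.05, -0.10 to -0.01). Inhba, the activin A subunit, had 143 and 186 CPM (-0.39) and Bmp1, a metalloprotease rather than a Smad-signalling ligand, 153 and 181 CPM (-0.24). Bmp4 had 0 UMIs in K2-KO and 1 UMI in control tumour cells. Tgfb2 had 3.98 CPM in K2-KO and 2.47 CPM in control cells of the gate (0.69), but 2.53 and 2.21 CPM (0.19) without gland cells and leukocytes. There Bmp5, at 0.727 and 0.230 CPM, was the ligand counted as higher, against 12.0% of the genes tested. The activin subunit Inhbb, at 1.85 and 5.32 CPM (-1.53), was the one counted as lower, against 6.97%.

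Among 12 receptors and co-receptors, all with enough UMIs, Eng was lower and Acvrl1 and Bmpr1b were higher in the tumour gate, against 5.33% and 16.6% of the genes tested. Eng, endoglin, a co-receptor for TGF-beta and BMP9, had 37.9 CPM in K2-KO and 61.4 CPM in control tumour cells (-0.69, -0.75 to -0.64). The type II TGF-beta receptor gene Tgfbr2 had 87.0 CPM in K2-KO and 63.0 CPM in control tumour cells (0.47, 0.42 to 0.51). Tgfbr3, betaglycan, had 8.50 and 12.3 CPM (-0.54) in the gate, and 5.77 and 12.3 CPM (-1.09) without gland cells and leukocytes. Bmpr1b had 2.13 CPM in K2-KO and 0.519 CPM in control cells of the gate, and 0.162 and 0.279 CPM without gland cells and leukocytes, where it had too few UMIs to be counted.

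None of the 5 Smad genes measured was past 1.5-fold in the tumour gate, against 5.33% of the genes tested lower and 16.6% higher. Smad1, which carries BMP signals, had 63.1 CPM in K2-KO and 92.8 CPM in control tumour cells (-0.56, -0.60 to -0.51), and Smad5 had 27.0 and 23.7 CPM (0.19). Without gland cells and leukocytes Smad1 had 62.2 CPM in K2-KO and 93.2 CPM in control cells (-0.583, -0.63 to -0.54), just within 1.5-fold. Smad3 had 182 CPM in K2-KO and 215 CPM in control tumour cells (-0.24), Smad2 had 50.1 and 40.3 CPM (0.31) and Smad4 had 47.1 and 45.1 CPM (0.06). The genes of the 2 arms were therefore not uniformly lower or higher at the level of the Smads.

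Genes of the stress response to tissue digestion were also lower in K2-KO tumour cells. Of 18, 17 had a log2 ratio below 0 in the gate, 5 were at least 1.5-fold lower and 1 higher, against 5.33% and 16.6% of the genes tested, with a median of -0.41, and their summed level was 6116 CPM in K2-KO and 8849 CPM in control tumour cells. The early-response gene Ier3 had 485 CPM in K2-KO and 1100.1 CPM in control tumour cells (-1.18), and Btg2 had 73.2 and 177 CPM (-1.27). Without gland cells and leukocytes Btg2 had 36.2 CPM in K2-KO and 161 CPM in control cells (-2.15). Several members, among them Id1, Id3 and Smad7, are themselves induced quickly by stimuli, and the part of the stress response in their levels was not tested. Of 13 cell-cycle genes 2 were higher and none lower, against 16.6% and 5.33% of the genes tested, with a median of 0.33.

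In fibroblasts, 105 in the K2-KO and 117 in the control library, 1 of 9 members was at least 1.5-fold lower, Id3, against 5.45% of 9837 genes, and none was higher, against 7.51%. Id3 had 729 UMIs and 169 CPM in K2-KO fibroblasts, against 956 UMIs and 274 CPM in control fibroblasts (-0.70, -0.84 to -0.56). In the fibroblast-like cluster, which held 91.4% of the K2-KO and 86.3% of the control cells of the gate, it had 159.9 CPM in K2-KO and 211 CPM in control cells (-0.40), within 1.5-fold. Cells of the pericyte or smooth muscle-like cluster made up 5.71% of the K2-KO and 12.8% of the control gate. Id3 stood at 527 CPM in K2-KO and 877 CPM in control cells of that cluster, and their part in the Id3 ratio was not tested. The Smad3-type members, which had their highest levels in fibroblasts among the gated classes for Pmepa1 and Thbs1, were close between the libraries. Pmepa1 had 745 CPM in K2-KO and 752 CPM in control fibroblasts (-0.01, -0.09 to 0.06), and Thbs1 had 466 and 493 CPM (-0.08, -0.17 to 0.01).

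Smad7 had 154 CPM in K2-KO and 137 CPM in control fibroblasts (0.17, -0.01 to 0.34), Skil 113 and 124 CPM (-0.13, -0.32 to 0.06), and Smad6 12.5 and 8.90 CPM (0.49, -0.17 to 1.18). Id1, Id2 and Bambi had 50 to 130 UMIs in each library and intervals that included 0. Apart from Id3, each member's interval in fibroblasts thus included 0. Fermt2 had 301 CPM in K2-KO and 456 CPM in control fibroblasts (-0.60, -0.70 to -0.49). In the fibroblast-like cluster its ratio was -0.55 (-0.66 to -0.44), within 1.5-fold. Fermt2 stood at 486 CPM in K2-KO and 703 CPM in control pericyte or smooth muscle-like cells, whose part in the ratio of the gate was not tested.

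The Pecam1 gate held vessel cells mixed with many leukocytes. Of its 489 K2-KO and 200 control cells, 93.5% and 74.5% had a UMI of Ptprc, and 59 and 44 had a UMI of Cdh5, the endothelial cadherin. In this mixed gate Smad7 was higher, against 15.2% of 10390 genes, and Id1, Id3, Bambi and Thbs1 were lower, against 15.7%, and the endothelial markers summed to 667 CPM in K2-KO and 2189 CPM in control cells. These 5 calls are therefore given with the larger leukocyte content of the K2-KO gate beside them, whose part in them was not tested.

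Cells of the gate with a Cdh5 UMI and no Ptprc UMI are taken as endothelial cells, a rule set after the gate was seen. There were 22 K2-KO and 39 control cells, with endothelial markers at 4109.8 and 4473 CPM and all 7 detected in both libraries. Markers of pericytes summed to 0 CPM in K2-KO and 111 CPM in control cells of this set, those of fibroblasts to 7.92 and 53.0 CPM, those of tumour epithelium to 248 and 63.8 CPM and those of macrophages to 201 and 215 CPM, and their part in the members' ratios was not tested. Of 7 members with enough UMIs, 4 were at least 1.5-fold higher, Id3, Smad7, Skil and Thbs1, against 13.8% of 4756 genes, and none was lower, against 16.8%. Id3 had 248 UMIs and 655 CPM in K2-KO, against 399 UMIs and 391.6 CPM in control endothelial cells (0.74, 0.51 to 0.97). Thbs1 had 100 UMIs and 264 CPM in K2-KO, against 107 UMIs and 105 CPM in control endothelial cells (1.33, 0.92 to 1.74). Id1 had 328 CPM in K2-KO and 222 CPM in control endothelial cells (0.56, 0.23 to 0.88).

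Smad7 rested on few UMIs in these cells. Smad7 had 40 UMIs in each library, or 106 CPM in K2-KO and 39.3 CPM in control endothelial cells (1.43, 0.76 to 2.098), and a single K2-KO cell held 45.0% of its UMIs there. With every cell weighing the same, the log2 ratio was 0.55 for Smad7 and 0.02 for Skil. Bambi had its highest level of the gated classes here, 100.4 CPM in K2-KO and 68.7 CPM in control endothelial cells (0.55, -0.06 to 1.14), and Pmepa1 had 225 and 211 CPM (0.09, -0.29 to 0.46). In the same cells 16 of 18 stress-response genes were at least 1.5-fold higher in the K2-KO library, against 13.8% of the genes tested. The summed level of the stress-response genes was 9889 CPM in K2-KO and 4066 CPM in control cells. The part of this in the members' higher levels was not tested.

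Macrophages, 1154 in the K2-KO and 1452 in the control library, had 1 of 9 members at least 1.5-fold lower, Smad6, against 1.85% of 12485 genes, and none higher, against 7.67%. Smad6 had 409 UMIs and 20.6 CPM in K2-KO macrophages, against 853 UMIs and 31.9 CPM in control macrophages (-0.63, -0.80 to -0.46). The macrophage-like clusters were filled unevenly, with 504 K2-KO and 629 control cells in cluster 4, led by Ccl8, 185 and 593 in cluster 5, led by Mmp12, and 308 and 196 in cluster 7, and the part of this in the macrophage ratios was not tested. Pmepa1 had 385 CPM in K2-KO and 489.9 CPM in control macrophages (-0.35, -0.39 to -0.31), and Smad7 had 96.4 and 112 CPM (-0.21, -0.30 to -0.13). Id2, which is needed for several leukocyte lineages, had 375 CPM in K2-KO and 339 CPM in control macrophages (0.15, 0.10 to 0.19), Skil 244 and 219.7 CPM (0.15, 0.09 to 0.20) and Thbs1 40.6 and 33.7 CPM (0.27, 0.13 to 0.41). Id1, Id3 and Bambi had intervals that included 0. For Id3 this depended on the gate. In the macrophage-like clusters Id3 had 14.1 CPM in K2-KO and 20.5 CPM in control cells (-0.55, -0.77 to -0.33), within 1.5-fold. Cells of the monocyte-like cluster made up 17.7% of the K2-KO and 8.88% of the control gate. Id3 stood at 69.3 CPM in K2-KO and 58.2 CPM in control cells of that cluster, and their part in the Id3 ratio was not tested. The Smad6 ratio moved to -0.55 with called doublets kept and stood between -0.55 and -0.83 over the alternatives tried.

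In T cells, 518 in the K2-KO and 368 in the control library, 6 of 9 members had enough UMIs. Markers of NK cells summed to 263 CPM in K2-KO and 958 CPM in control cells of this gate. The T cell-like clusters were filled unevenly, with 586 K2-KO and 193 control cells in cluster 11, 276 and 114 in cluster 13, led by Foxp3, 104 and 190 in cluster 16, led by Cd8a, and 20 and 122 in cluster 20, led by Il17a. The part of these differences in the members' ratios was not tested. Id3 was at least 1.5-fold lower, against 5.35% of 9476 genes, and Id1 was higher, against 6.92%. Id2 had 1899 UMIs and 359 CPM in K2-KO T cells, against 1807 UMIs and 512 CPM in control T cells (-0.51, -0.60 to -0.42). Id3, which restrains E proteins during T cell differentiation, had 75 UMIs and 14.2 CPM in K2-KO T cells, against 82 UMIs and 23.2 CPM in control T cells (-0.71, -1.18 to -0.24), and 1 cell held 33.3% of the K2-KO UMIs. Id1 had 47 UMIs in K2-KO and 19 UMIs in control T cells (0.72, -0.07 to 1.58), an interval that included 0, and the ratio was 0.58, under 1.5-fold, without the cell with the most UMIs.

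Smad7 was abundant in T cells and close between the libraries, at 436 CPM in K2-KO and 400.04 CPM in control T cells (0.13, 0.03 to 0.22). Skil had 228 CPM in K2-KO and 289 CPM in control T cells (-0.34, -0.46 to -0.22), and Pmepa1 had 247 and 225 CPM (0.13, 0.01 to 0.26). Thbs1 and Smad6 were at the edge of detection, with 7 and 1 UMIs in each library, and Bambi had 29 UMIs in K2-KO and 18 in control T cells. T cells therefore carried Smad7, Skil, Pmepa1 and Id2 but hardly any Smad6 or Thbs1.

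Across the 14 cell types named from clusters, each member had its own order of levels. Id1 had its highest levels in endothelial-like cells (321 CPM in K2-KO, 196 CPM in control) and neutrophil-like cells (178 and 212 CPM), whose order differed between the libraries. Id3 was highest in endothelial-like cells of the K2-KO library (626 CPM, against 357 CPM in control) and in pericyte or smooth muscle-like cells of the control library (527 CPM in K2-KO, 877 CPM in control). Those types had 26 and 9 K2-KO cells and 48 and 17 control cells. Tumour epithelial-like cells had 342 CPM in K2-KO and 482 CPM in control.

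Id2 had its highest levels in some of the leukocyte types. Conventional dendritic-like cells had 603 CPM in K2-KO and 512 CPM in control, NK cell-like cells 499.9 and 522 CPM, and monocyte-like cells 478 and 421 CPM, whereas tumour epithelial-like cells had 13.2 and 23.3 CPM. Among leukocytes it was low in plasmacytoid dendritic-like cells, at 19.2 CPM in K2-KO and 49.7 CPM in control. Of all Id2 UMIs, tumour epithelial-like cells held 7.53% in K2-KO and 20.04% in control, against 93.0% and 96.4% of all Id3 UMIs. A few leukocytes in a tumour gate thus weigh on Id2 far more than on Id3.

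Smad6 was highest in monocyte-like and macrophage-like cells (22.2 and 20.7 CPM in K2-KO, 33.3 and 32.8 CPM in control) apart from the 9 pericyte or smooth muscle-like K2-KO cells at 28.6 CPM. Smad7 was highest in T cell-like (492 CPM in K2-KO, 450.2 CPM in control) and NK cell-like cells (437 and 407 CPM). Pmepa1 and Thbs1 were highest in fibroblast-like cells, at 756 and 468 CPM in K2-KO and 802 and 505 CPM in control. Skil was highest in neutrophil-like cells in K2-KO (428 CPM) and in gland epithelial-like cells in control (378 CPM). Bambi was highest in endothelial-like cells (92.5 CPM in K2-KO, 88.2 CPM in control), had 23.2 and 9.10 CPM in gland epithelial-like cells and 0.0690 and 0.0636 CPM in tumour epithelial-like cells.

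**Figure D4:**
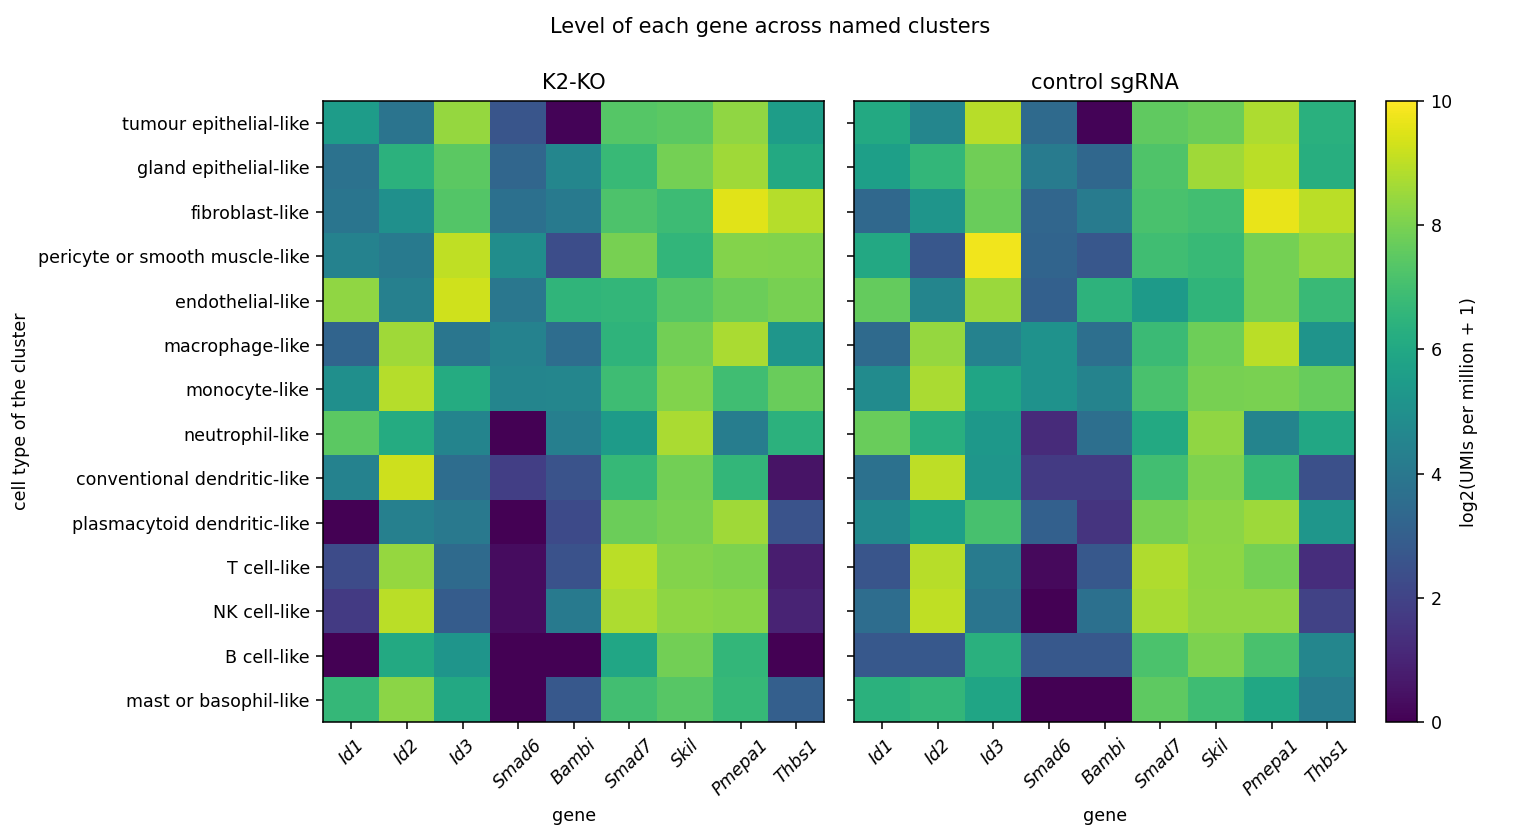
The colour gives log2(CPM + 1) of each gene (columns) in each cell type named from clusters (rows), with the K2-KO library on the left and the control library on the right. In tumour epithelial-like cells Id2 stands at 13.2 CPM in K2-KO and 23.3 CPM in control, Id3 at 342 and 482 CPM, and Bambi is dark, while in conventional dendritic-like cells Id2 stands at 603 and 512 CPM.

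Within tumour cells, Smad7, Skil and Pmepa1 varied together from cell to cell more than the other pairs of members did. Pearson's r of the 3 pairs among Smad7, Skil and Pmepa1 was 0.36 to 0.38 over 1189 non-cycling K2-KO cells and 0.36 to 0.41 over 2328 non-cycling control cells, gland cells left out. Id1 with Id3 had 0.10 in K2-KO and 0.06 in control cells, and Id1 with the Smad3-type genes and Smad7 stayed between -0.03 and 0.07. Thbs1, also a Smad3-type gene, had only 0.13 to 0.17 with Smad7, Skil and Pmepa1 in non-cycling cells of either library. Id3 with Skil had a like value there, 0.14 in K2-KO and 0.12 in control cells. In cycling cells the 3 pairs gave 0.32 to 0.42 over 571 K2-KO cells and 0.36 to 0.49 over 577 control cells. Thbs1 with Smad7, Skil and Pmepa1 had 0.08 to 0.16 in cycling K2-KO cells but 0.26 to 0.29 in cycling control cells. The cells of a library share its preparation, and sparse genes such as Id1 and Id2 cannot show high values, so these are descriptions. Smad6 and Bambi were too sparse to be included.

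Over the 5 gated classes in both libraries (10 points), the genes with the profile most like each member were found by Pearson's r of log2(CPM + 1) among 17388 genes. They were Mall, Sema3f and Pik3c2b for Id1 (r = 0.97 to 0.98), Prex1, Arhgap30 and Aim2 for Id2 (0.99 each), and Ddah2, Pcdhb22 and Slc30a4 for Id3 (0.98 to 0.99). For Smad6 they were Ncstn, Tctex1d2 and Lamp1 (0.98 each), for Smad7 Slc25a40, Cep97 and Hacd3 (0.98 each) and for Skil Sap25, Sik2 and Gm45894 (0.96 to 0.97). For Bambi they were Rtl8b, Rtl8a and C2cd2 (0.96 to 0.98), for Pmepa1 Cavin4, Gm26737 and Endog (0.95 to 0.96) and for Thbs1 Fads2, Tubb2a and Itga5 (0.97 each). Among the members themselves, Id1 with Id3 had 0.72 and Pmepa1 with Thbs1 0.73, while Id2 with Id3 had -0.86 and Smad6 with Smad7 -0.94. With only 5 classes, each in a pair of libraries, such values mainly reflect which class a gene is high in, and the Pecam1 gate among them was mostly leukocytes.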

How the data were processed

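The data are UMI counts per gene and cell barcode, deposited by the authors as 1 matrix of both libraries. Reads were aligned to mm10, and Cell Ranger 2.1.1 was used, per the submitters' processing notes, but Cell Ranger 6.0.1 stands in the header of the matrix, and which version made the counts is not settled. Barcodes with suffix 1 were taken as the control and those with suffix 2 as the K2-KO library, by the library numbers of the labels alone. Barcodes under 500 UMIs or 200 genes, or with over 20% of UMIs from mitochondrial genes, were dropped. Scrublet (scanpy 1.11.5) marked doublets in each library, which were removed (201 K2-KO and 217 control cells, 2.89% and 2.80%). Clusters (Leiden, resolution 1, 2000 variable genes, 30 principal components, 15 neighbours, igraph 0.11.9, no integration) were named "-like" from marker lists. The way a cluster's leading genes settle its name was revised after the clusters were seen, which turned 1 cluster led by Chil3, Ly6c2 and Plac8 from macrophage-like to monocyte-like.

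A cell entered a gate when its gate gene had at least 2 UMIs (1 for Cd3e) and more than 66.7% of the UMIs of the 5 gate genes. Gland cells are those with at least 2 UMIs of 5 gland markers together or in a gland cluster. UMIs were summed per library and class, and no count model or test was used because each group has 1 library. Intervals and limits for a count of 0 cover counting error only, and the calculation was tested on simulated counts. Shares were also taken after thinning cells to 1000 UMIs. Gene positions came from GENCODE vM21, which held 99.6% of the matrix's identifiers, and promoters from RefSeq. The text names the 9 members in every class, Fermt2, gate genes, the 3 highest and 3 lowest ratios in tumour cells of each list with at least 50 UMIs, a few fixed genes (Ccn2, Id4, Tgfb1, Tgfbr2, Bmp4 and Eng, with 1 more that is not reported here) and the 3 genes most like each member. The members and lists were chosen with earlier results of these data known. Alternatives were other filters, gates, scalings and cell sets. The statistics used scipy 1.17.1 and numpy 2.4.6 under Python 3.11.15, with tables in pandas 2.3.3 and figures in matplotlib 3.10.9.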

Additional observations from a re-analysis of the deposited data

Results flagged for a closer look

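Id3 differed in opposite directions between cell classes. Its log2 ratio, K2-KO over control, was 0.74 in endothelial cells, against -0.70 in fibroblasts and -0.71 in T cells, each past 1.5-fold with an interval that did not include 0. Thbs1 was likewise 1.33 in endothelial cells and -0.78 in tumour cells. With 1 library per group the difference between the classes was not tested. The endothelial values rest on 22 K2-KO and 39 control cells. In them the stress-response genes summed to 9889 CPM in K2-KO and 4066 CPM in control cells. Pericyte markers summed to 0 and 111 CPM there, and tumour epithelial markers to 248 and 63.8 CPM. The part of these differences in the endothelial ratios was not tested. The fibroblast value of Id3 was -0.40, within 1.5-fold, in the fibroblast-like cluster. In T cells a single cell held a large part of the K2-KO Id3 UMIs.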

How the results depend on the processing

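In tumour cells 95 of 95 values of the members under the alternatives kept their sign, and 38 of 40 called values stayed past 1.5-fold, not counting Bambi where it had too few UMIs (without gland cells or by clusters). Both exceptions were Id1, at -0.55 with classes taken from clusters and -0.35 as a mean over tumour clusters. Called doublets kept gave 1 member lower in non-cycling tumour cells, 0 higher in the Pecam1 gate and 0 lower in macrophages. The stricter gate gave 1 member higher in fibroblasts, 3 in the Pecam1 gate and 0 in T cells. Classes taken from clusters gave 0 members higher in all, cycling and non-cycling tumour cells and in T cells, 0 lower in fibroblasts, and 5 higher and 0 lower for the Pecam1 gate. Under it the endothelial-like cluster, with 26 K2-KO and 48 control cells, replaced the Pecam1 gate of mostly leukocytes. There Id1 (0.71), Id3 (0.81), Bambi (0.068) and Thbs1 (1.16) turned positive, and Id1 in T cells turned to -0.45. The cause of these changes of sign was not tested. With every cell weighing the same, 1 member was lower in non-cycling tumour cells, 1 higher and 0 lower in fibroblasts, 0 higher in the Pecam1 gate and 2 lower in macrophages. Without the cell with the most UMIs of a gene, 2 members were higher in the Pecam1 gate and 0 in T cells. Without gland cells, and also without cells with 2 Ptprc UMIs, 0 were higher in all, cycling and non-cycling tumour cells. With any Top2a UMI counted as cycling, 1 was lower in non-cycling tumour cells, and as a mean over clusters 0 were higher in tumour cells. Except for all tumour cells without gland cells and leukocytes, the share of all genes past 1.5-fold is not given for these alternatives. The counts therefore describe only the members' calls. Among non-cycling tumour cells 94 of 96 values kept their sign, and the others were Id2 with every cell weighing the same (0.16) and with any Top2a UMI counted as cycling (0.15). No paired analysis was possible because each group has 1 library. Few UMIs limit Smad6 and Thbs1 in T cells and Id2, Smad6 and Smad7 in endothelial cells.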
